A study of Mus musculus with 15 samples.

Results

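The genes described here are those whose transcript level in liver differed between Aldh2-/- and wild-type (WT) mice in the same direction under an ethanol diet and under pair-feeding, with no overlap of the genotypes in either diet. Of 23509 genes measured, 11132 had a mean of at least 0.5 FPKM (fragments scaled by gene length and by library depth) and were tested. Among these, 549 met the rule, 237 higher and 312 lower in Aldh2-/- livers. The rule itself uses the values of all 15 libraries, so the members' differences are a description of the choice. Tests below come from a fit over all genes tested. The gene lists were not drawn from the members, but they were chosen with earlier results of these data known. Ethanol feeding was represented by 5 WT and 4 Aldh2-/- libraries, and pair-feeding by 3 of either genotype. The animals were males on a C57BL/6 background, 8 to 10 weeks old by the labels, and the Aldh2-/- stock came from a commercial supplier. The series text calls the WT mice littermates. By the sample annotation every group also received the liver toxin carbon tetrachloride (CCl4) by injection 2 times a week for 8 weeks and was killed 24 h after the last dose, whereas the sample titles name CCl4 for the ethanol groups only. If the annotation holds, no group without CCl4 was compared. If the titles hold, the pair-fed groups lacked CCl4, and ethanol and CCl4 cannot be told apart between the diets. No cell type was isolated. The labels name no promoter or Cre for the deletion.

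Aldh2 encodes mitochondrial aldehyde dehydrogenase 2, which oxidises acetaldehyde made from ethanol and also clears aldehydes that arise from lipid peroxidation. CCl4 causes lipid peroxidation after it is activated by hepatic cytochrome P450. Repeated dosing kills hepatocytes around the central vein, which is followed by hepatocyte division, by macrophage activity and by the deposition of collagen.

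Libraries were similar in depth, from 90.0% to 111.0% of their mean as read from the smallest steps of the values, and library scaling factors ran from 0.835 to 1.15. Albumin (Alb), the main hepatocyte product, was at 31489 to 47001 rescaled FPKM in Aldh2-/- and 43493 to 66936 in WT livers under ethanol, and at 33061 to 43870 against 46224 to 54232 under pair-feeding. Its average contrast was -0.42 (adjusted p = 0.0199 by limma). That call was lost as deposited (adjusted p = 0.182), with a common sum (0.224), with no filter on low values (0.454), with the non-mitochondrial sum (0.0963) and without pair-fed Aldh2-/- 1 (0.0648), and after quantile normalization the contrast was 0.051 (adjusted p = 0.882). The mitochondrial genome supplied 15.2% to 24.2% of all FPKM in WT livers after pair-feeding, against 6.90% to 10.8% in Aldh2-/- livers. In ethanol-fed livers it supplied 6.68% to 9.72%, apart from WT 5 at 13.6% and Aldh2-/- 90 at 18.2%. Without both of these libraries 354 genes were higher and 524 lower without overlap in both diets, and 544 of the 546 called members described below were still called. The labels number the libraries but give no litter or batch, so p-values measure the spread between these libraries.

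The deleted gene was low in all Aldh2-/- libraries. Aldh2 (chromosome 5, 121566027-121593824, GRCm38) was at 9.01, 9.49, 10.1 and 10.9 rescaled FPKM in ethanol-fed Aldh2-/- livers and at 532, 628, 696, 701 and 749 in ethanol-fed WT livers. Pair-fed livers held 5.72, 5.93 and 6.40 rescaled FPKM in Aldh2-/- mice against 281, 327 and 370.2 in WT mice. The means were 67.0-fold apart under ethanol and 54.2-fold apart under pair-feeding. The average of both within-diet differences of mean log2(FPKM + 1), called the average contrast from here on, was -5.73 (two-sided p = 0.000397 in an exact permutation test, which is the lower limit for 2520 arrangements of genotypes within diets). No difference of the 2 within-diet values was called (interaction adjusted p = 0.116 by limma).

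Across the transcriptome the average contrast was called for 3015 genes at an adjusted p under 0.05 (limma, Benjamini-Hochberg over 11132 genes). Of all genes tested, 1410 (12.7%) were higher and 1605 (14.4%) lower in Aldh2-/- livers. The 237 higher and 312 lower genes without overlap in both diets made up 2.13% and 2.8% of genes tested. Of these, 235 (2.11%) and 311 (2.79%) were also called, which follows largely from how they were chosen. The exceptions were Cenpb, Diaph1 and Mid2, with adjusted p-values of 0.0959, 0.0922 and 0.0712 by limma. A further 420 genes (3.77%) separated the genotypes in both diets in opposite directions. The diets each separated the genotypes for 3094 (ethanol) and 3348 (pair-fed) genes, so the 549 were 17.7% of the first and 16.4% of the second. These contrasts share no library. Across all genes tested the within-diet differences had a Pearson r of 0.085 and a Spearman rho of 0.0044, given as a description, since genes are not independent replicates. The counts moved with single libraries: without pair-fed Aldh2-/- 9, WT 18 or WT 19 the higher genes numbered 373, 373 and 378, and the genes in opposite directions numbered 695 without ethanol WT 5 and 825 without pair-fed WT 19.

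The balance of rises and falls moved with library scaling. The median of all genes in the average contrast was -0.01 after median-ratio rescaling and 0.15 with values as deposited or rescaled to a common sum. With values as deposited 3658 genes were called higher and 678 lower, and 686 against 90 genes separated the genotypes in both diets. With a common sum the corresponding counts were 3567 and 612, and 688 and 75. A common sum of the genes not encoded in mitochondria, an alternative chosen after seeing the data, shifted the median to 0.11 and gave 2828 and 812 called genes, and 576 and 101 without overlap. All directions below are therefore relative to the median gene. Of the 546 called members, 481 were still called in the same direction as deposited, 475 with a common sum and 531 after quantile normalization. Fewer kept the lack of overlap in both diets, 317, 302 and 413 in these settings and 332 with the non-mitochondrial sum.

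**Figure D1:**
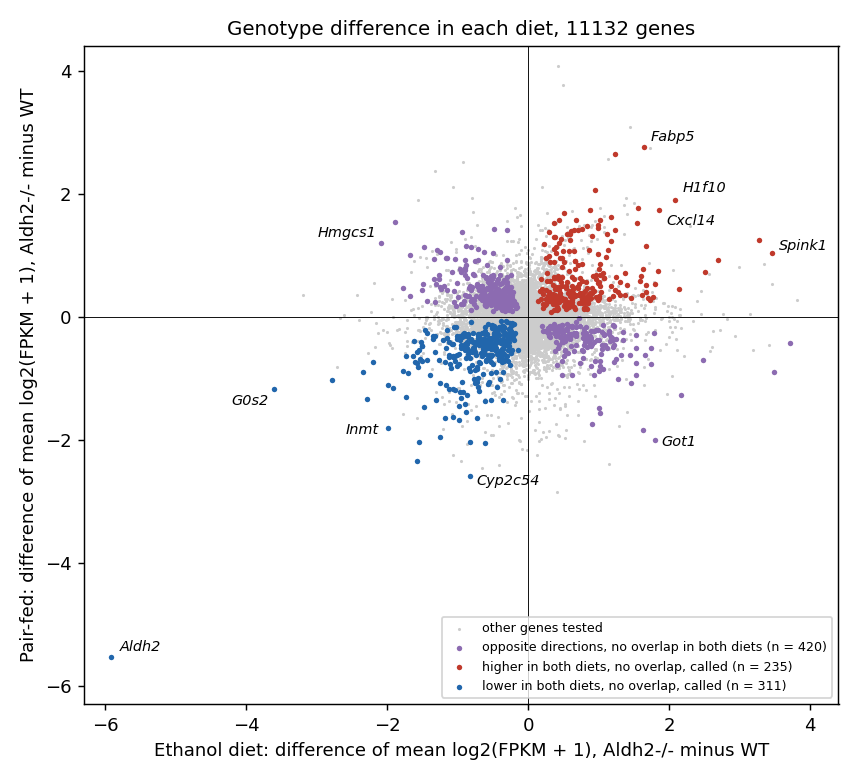
Difference of mean log2(FPKM + 1) between Aldh2-/- and WT livers under ethanol (horizontal) and under pair-feeding (vertical), 1 point for each of 11132 genes. Red and blue points (235 and 311) are called genes without overlap of genotypes in both diets, purple points (420) separated in opposite directions, and Aldh2 lies alone at the lower left.

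The members were mostly modest changes. On the log2(FPKM + 1) scale, which understates the change of low genes, 15 of the 235 called rises and 20 of the 311 called falls reached 1 in both diets. Among all genes tested 86 did so, counted whether the diets moved in the same or in opposite directions. The lower members were the more abundant transcripts, with a median level of 11.7 rescaled FPKM against 3.08 for the higher members and 4.34 for all genes tested. Of those with an annotated position, 98.7% of higher and 88.5% of lower members were protein-coding, against 95.8% of all. The difference was larger under ethanol for 351 of the 546, and for 6754 of the 11132 genes tested. The genotype by diet interaction was called for 3160 of all genes (28.4%) and for 101 of the 546. Since the rule asks for the same direction in both diets, nothing is read from that lower share. Lack of overlap in the members follows from the rule, and their small p-values follow largely from it. An adjusted p below is that of the average contrast unless an interaction or a single diet is named. That contrast does not speak for either diet alone.

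The largest rise was that of Serpina1e, a member of the alpha-1-antitrypsin gene cluster, at an average contrast of 2.25 ± 0.39 (SE, adjusted p = 0.000936). Its near-identical cluster copies make it uncertain. Mean levels were 8.85-fold higher under ethanol (14.4-fold without WT 7) and 2.46-fold higher under pair-feeding. Limma's adjusted p within a diet was 0.000161 under ethanol and 0.212 under pair-feeding. Spink1, a trypsin inhibitor that also rises in regenerating and neoplastic liver, followed at 2.24 ± 0.21 (adjusted p = 2.06e-05). It was at 10.4, 15.3, 16.3 and 20.0 rescaled FPKM in ethanol-fed Aldh2-/- livers against 0.0702 to 0.921 in WT livers. Under pair-feeding it was at 3.23, 3.60 and 3.81 against 0.485, 0.799 and 3.15 rescaled FPKM, so that the genotypes nearly met there (2.40-fold, and 5.52-fold without WT 19). The interaction was called (adjusted p = 0.00151).

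Fabp5 (chromosome 3, 10012585-10016610), a fatty acid binding protein that is low in resting hepatocytes, was at 21.1, 29.7, 32.2 and 46.5 rescaled FPKM in ethanol-fed Aldh2-/- livers and at 7.17, 7.31, 8.91, 11.5 and 13.2 in WT livers. Pair-fed Aldh2-/- livers held 61.7, 96.8 and 103 rescaled FPKM against 10.4, 11.3 and 13.8. The genotypes did not overlap in either diet, as the rule requires. The average contrast was 2.20 ± 0.18 (adjusted p = 1.05e-05), with a larger difference under pair-feeding (interaction adjusted p = 0.0289).

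H1f10 (chromosome 6, 87980421-87981482), a linker histone variant, gave nearly the same response in each diet. It was at 6.99, 9.28, 9.83 and 15.9 rescaled FPKM in ethanol-fed Aldh2-/- livers against 1.07, 1.14, 1.55, 1.71 and 2.93 in WT livers. Under pair-feeding the values were 12.7, 14.3 and 17.4 against 2.91, 3.21 and 3.54. Neither diet showed overlap, as the rule requires (average contrast 1.99 ± 0.16, adjusted p = 1.05e-05, and interaction adjusted p = 0.683).

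Cxcl14 (chromosome 13, 56288643-56296811), a chemokine, was equally even. Ethanol-fed Aldh2-/- livers held 4.05, 4.53, 4.80 and 10.1 rescaled FPKM and ethanol-fed WT livers 0.700 to 0.917. Pair-fed livers held 4.02, 4.32 and 9.83 against 0.813, 0.873 and 1.28. In each diet 1 Aldh2-/- library stood well above the rest. By the rule all Aldh2-/- libraries exceeded the WT libraries of their diet (7.34-fold and 6.13-fold, adjusted p = 2.44e-05).

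Rgs16, which switches off G-protein signalling, rose more under pair-feeding (8.92-fold) than under ethanol (2.51-fold, interaction adjusted p = 0.0230). Btg3, an anti-proliferative gene, did the reverse, at 7.23-fold under ethanol and 1.79-fold under pair-feeding (interaction adjusted p = 0.00278). Metallothionein 2 (Mt2), a zinc-binding stress protein, was at 2360 to 3273 against 164 to 1129 rescaled FPKM under ethanol and at 262 to 648 against 208 to 256 under pair-feeding. Its average contrast was 1.81 ± 0.36 (adjusted p = 0.00231) and no interaction was called (adjusted p = 0.0761). Within a diet, limma's adjusted p for Mt2 was 0.000385 under ethanol and 0.329 under pair-feeding, so it was not called there alone. Fgl1, a fibrinogen-like protein that hepatocytes secrete, was 2.15-fold and 2.52-fold higher under ethanol and pair-feeding (adjusted p = 0.000451).

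**Figure D2:**
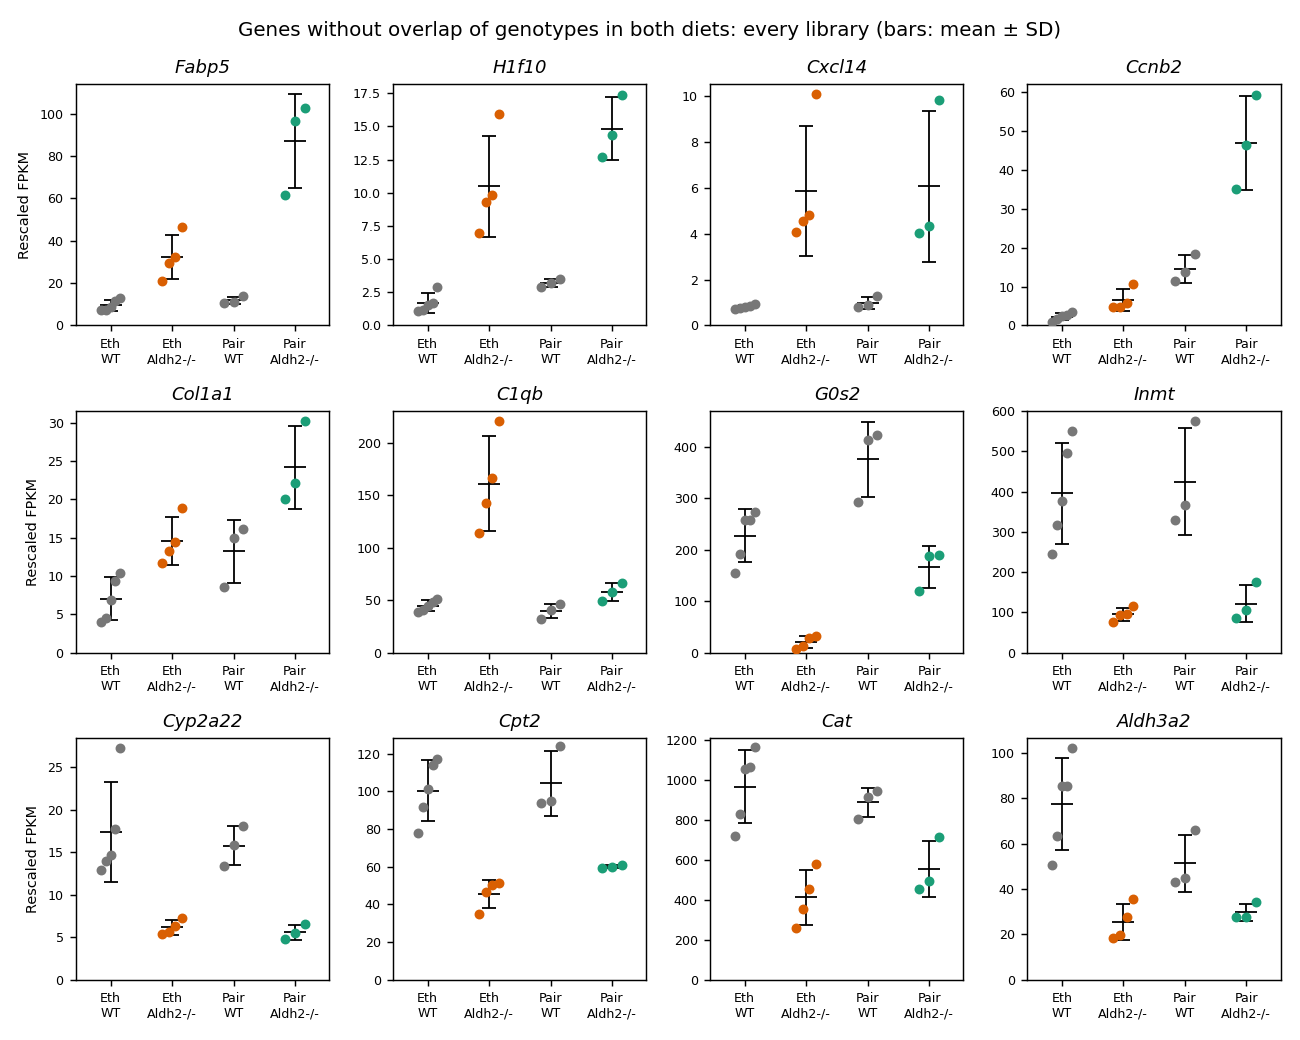
Rescaled FPKM of 12 members in every library (points), grouped by diet and genotype, with mean ± SD as bars and each panel on its own axis from 0. In each panel the Aldh2-/- points lie wholly above or wholly below the WT points of the same diet, as the rule requires. The size of the gap differs between diets for genes such as C1qb and G0s2.

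Genes of mitosis rose together in both diets. Of 24 tested, 23 rose in the average contrast and none fell, beside 12.7% of all genes, and the median was 1.14. The remaining gene, Cks2, a subunit of cyclin-dependent kinases, had 0.37 (adjusted p = 0.0589). It was called with values as deposited and without ethanol WT 5 or pair-fed Aldh2-/- 9. The median difference was 0.87 under ethanol and 1.44 under pair-feeding, and the interaction was called for 2 of the 24. With a mean of at least 2 FPKM only 16 of these genes were tested, of which 15 rose. Of the 24, 11 separated the genotypes in both diets, beside 2.13% of all genes. They were the cyclin genes Ccna2, Ccnb1 and Ccnb2, the chromosomal passenger genes Aurkb, Birc5 and Cdca8, the spindle genes Bub1b, Nuf2, Kif20a and Hmmr, and the proliferation marker Mki67.

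Ccnb1 encodes cyclin B1, which drives entry into mitosis. It was at 2.31, 3.06, 3.08 and 5.43 rescaled FPKM in ethanol-fed Aldh2-/- livers against 0.281 to 0.670 in WT livers, and at 8.60, 26.3 and 30.6 against 2.84, 5.50 and 7.43 under pair-feeding. The ratio of means was 7.22 under ethanol and 4.15 under pair-feeding (average contrast 1.66 ± 0.24, adjusted p = 0.000336). Ccnb2, the second B-type cyclin, was at 4.79, 4.82, 5.67 and 10.7 against 1.01 to 3.35 rescaled FPKM under ethanol and at 35.2, 46.3 and 59.2 against 11.4, 13.8 and 18.3 under pair-feeding. Mki67 was at 0.659, 0.684, 0.724 and 1.34 against 0.0931 to 0.279 rescaled FPKM under ethanol and at 3.20, 10.1 and 10.1 against 1.52, 2.29 and 2.50 under pair-feeding. Diet coincides with the deposited table, so levels are compared within a diet only. The summed level of the mitosis list ran from 60.1 to 124 against 26.3 to 35.5 rescaled FPKM under ethanol, and from 182 to 718 against 117 to 195 under pair-feeding, where 1 Aldh2-/- library overlapped the WT range. In whole liver, more dividing cells and more transcript per dividing cell cannot be told apart, and the same holds for the markers of other cell types below.

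The promoters of these genes are known for a pair of elements, the CCAAT box and the cell cycle genes homology region (CHR). The factor NF-Y binds the CCAAT box. The DREAM complex binds the CHR and keeps these genes silent in resting cells. Promoters are shown because the members move together. Promoter sequences were those of RefSeq on GRCm38.p6. The 150 bases just before the start, as the RefSeq promoter table gives it, of 4 members are printed 5′ to 3′. Each CCAAT or its reverse complement ATTGG, and each TTTGAA (the only CHR form searched) or its reverse complement TTCAAA, is in capitals.
Ccnb1, chr13:100786487-100786636, minus strand: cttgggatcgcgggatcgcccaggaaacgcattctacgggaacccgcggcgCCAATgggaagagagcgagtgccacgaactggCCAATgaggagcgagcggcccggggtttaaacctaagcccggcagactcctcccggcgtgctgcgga
Ccnb2, chr9:70421555-70421704, minus strand: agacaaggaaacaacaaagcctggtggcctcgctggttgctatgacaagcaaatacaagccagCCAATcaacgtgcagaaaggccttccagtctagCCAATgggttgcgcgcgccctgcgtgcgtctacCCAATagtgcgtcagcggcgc
Mki67, chr7:135716380-135716529, minus strand: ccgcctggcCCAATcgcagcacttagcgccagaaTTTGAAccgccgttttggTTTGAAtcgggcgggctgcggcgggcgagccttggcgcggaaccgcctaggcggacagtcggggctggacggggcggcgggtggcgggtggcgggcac
Hmmr, chr11:40733438-40733587, minus strand: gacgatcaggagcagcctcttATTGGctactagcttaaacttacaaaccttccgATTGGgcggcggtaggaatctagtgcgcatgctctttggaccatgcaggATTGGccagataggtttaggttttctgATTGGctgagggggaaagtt

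Ccnb1 showed 2 CCAAT boxes in this stretch, Ccnb2 showed 3, Hmmr showed 4 on the opposite strand, and Mki67 showed 1 together with 2 CHR matches. Over the full window of 300 bases, from 250 before to 50 after the start, Ccnb2 and Hmmr also held a CHR match. Ccnb1 held none, but other forms of the CHR were not searched, so it may hold a CHR with other letters. Of 20 mitosis genes with a promoter entry, 16 (80.0%) held a CCAAT box on either strand, against 41.1% of 27025 genes in the promoter table and 42.6% of the genes tested. A CHR match was present in 14 (70.0%), against 20.2% and 14.5%. Both were present in 13 (65.0%), against 8.97% and 6.94%. Among the members as a whole, 16.8% of 185 higher and 3.95% of 228 lower genes with an entry held both, and among the higher mitosis members 5 of 8 did. The letters of the motifs can overlap by at most 1 base, and a match describes the sequence only.

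DNA replication genes moved in the same direction. Of 21 tested, 17 rose and none fell (median 0.55), beside 12.7% and 14.4% of all genes. The median was 0.19 under ethanol and 0.82 under pair-feeding. In both diets 6 separated the genotypes, beside 2.13% of all genes. They were Mcm3, Mcm5, Mcm6 and Mcm7, which are subunits of the replicative helicase, the ribonucleotide reductase gene Rrm2 and the DNA ligase gene Lig1. Mcm6 was at 1.62, 1.64, 1.92 and 1.94 rescaled FPKM against 0.849 to 1.22 under ethanol and at 4.86, 4.91 and 5.05 against 1.67, 2.07 and 2.52 under pair-feeding. The spread within the groups of Mcm6 was small, and the difference was the larger one under pair-feeding (interaction adjusted p = 0.0160). Rrm2 was 2.91-fold and 2.79-fold higher (adjusted p = 0.000379). The interaction was called for 11 of the 21 genes, and the summed level of the list overlapped between genotypes under ethanol (62.5 to 69.0 against 60.7 to 71.4 rescaled FPKM).

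Targets of p53 were mixed. Of 30 tested, 10 rose and 2 fell (median 0.24), beside 12.7% and 14.4% of all genes. In both diets 4 rose without overlap, beside 2.13% of all genes. With values as deposited 17 rose and none fell. The median was 0.39 under ethanol and 0.05 under pair-feeding. Under ethanol 15 genes were higher and 2 lower without overlap, against 5 and 5 under pair-feeding. Among all 11132 genes tested, 1430 were higher and 1664 lower under ethanol, and 1713 and 1635 under pair-feeding. The interaction was called for 12 of the 30, and 2 separated in opposite directions. The summed level of the list separated the genotypes under ethanol only. Psrc1, a microtubule-associated protein, was at 2.50, 4.75, 5.31 and 6.12 rescaled FPKM against 0.657 to 0.776 under ethanol and at 1.88, 2.90 and 3.18 against 0.385, 0.727 and 0.777 under pair-feeding (average contrast 1.42 ± 0.13, adjusted p = 2.07e-05). Ckap2, a spindle protein and thus also a mitosis gene, was 6.03-fold and 4.46-fold higher. Bax, which opens the mitochondrial outer membrane in apoptosis, was 1.85-fold and 1.32-fold higher (adjusted p = 0.00153). Sesn1, an inhibitor of mTOR signalling, was at 13.2 to 17.8 against 3.15 to 4.58 rescaled FPKM under ethanol but at 1.86, 2.15 and 2.84 against 1.66, 1.70 and 1.75 under pair-feeding (interaction adjusted p = 0.000365).

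Macrophage genes rose in the average contrast, with larger differences under ethanol for the genes below whose interaction was called. Of 16 Kupffer cell markers tested, 11 rose and none fell, beside 12.7% and 14.4% of all genes. Their median was 0.62, with 0.97 under ethanol and 0.23 under pair-feeding. Cdh5 and Clec4g of that list are endothelial markers too. The 3 that separated the genotypes in both diets encode the chains of complement C1q, which hepatic macrophages make. C1qb was at 114, 143, 166 and 221 rescaled FPKM against 38.7, 40.2, 44.9, 48.2 and 51.1 under ethanol, and at 48.9, 58.2 and 66.5 against 32.4, 40.6 and 46.1 under pair-feeding. The pair-fed groups were close but did not overlap, and the interaction was called for C1qb (adjusted p = 0.00461), C1qa (adjusted p = 0.00914) and C1qc (adjusted p = 0.0286). Within a diet, limma's adjusted p for C1qb, C1qa and C1qc was 5.73e-06, 2.82e-05 and 4.33e-05 under ethanol. Under pair-feeding it was 0.119, 0.311 and 0.145. The marker list summed to 552 to 1148 against 265 to 337 rescaled FPKM under ethanol and to 383 to 457 against 264 to 374 under pair-feeding.

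Of 22 markers of recruited and scar-associated macrophages, 16 rose and none fell (median 0.53), beside 12.7% and 14.4% of all genes. Lysozyme (Lyz2) and the tetraspanin gene Cd9 separated the genotypes in both diets. Lyz2 was at 201, 245, 315 and 349 against 69.3 to 107 rescaled FPKM under ethanol and at 64.7, 70.8 and 123 against 34.5, 53.6 and 58.8 under pair-feeding (adjusted p = 0.000333). The list summed to 703 to 1264 against 287 to 482 rescaled FPKM under ethanol, and to 569 to 584 against 431 to 504 under pair-feeding. Its interaction was called for 12 of the 22 genes, and Gpnmb, a gene of lipid-laden macrophages, was 7.54-fold higher under ethanol and 1.20-fold under pair-feeding (interaction adjusted p = 0.00222), where the ratio was 0.650 without Aldh2-/- 9. Vcam1, an adhesion molecule for leukocytes, was 2.64-fold and 1.37-fold higher without overlap. The levels of other cells' markers are given beside these, and their part in the macrophage results was not tested. Of 6 neutrophil markers 5 rose, beside 12.7% of all genes, and 8 were called without ethanol-fed WT 5, where more passed the filter. Neutrophil markers summed to 151 to 562 against 46.2 to 163 rescaled FPKM under ethanol and to 368 to 967 against 80.6 to 192 under pair-feeding. Endothelial markers summed to 223 to 337 against 113 to 217 rescaled FPKM under ethanol but to 143 to 169 against 172 to 227 under pair-feeding. Erythroid and platelet genes summed to 755 to 2158 against 227 to 623 rescaled FPKM under ethanol and to 289 to 738 against 678 to 1083 under pair-feeding. Lymphocyte markers were near the limit of detection, with a summed level of 2.58 to 11.5 rescaled FPKM over all libraries, and none of the 4 tested was called.

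Among collagen genes, the chains of collagen I were the members. Col1a1 was at 11.6, 13.3, 14.4 and 18.9 rescaled FPKM against 4.05, 4.48, 6.92, 9.29 and 10.3 under ethanol, and at 20.0, 22.2 and 30.2 against 8.54 to 16.1 under pair-feeding. The means were 2.08-fold and 1.83-fold apart (average contrast 0.93 ± 0.20, adjusted p = 0.00331, and interaction adjusted p = 0.777). Col1a2 was 2.05-fold and 1.49-fold higher (adjusted p = 0.00543 in the average contrast). Within a diet, limma's adjusted p was 0.00479 for Col1a1 and 0.00293 for Col1a2 under ethanol. Under pair-feeding it was 0.0910 and 0.225, so neither was called there alone. Of 17 collagen genes tested, 10 rose and 1 fell (median 0.33). With a mean of at least 2 FPKM 10 were tested and 5 rose. Col3a1, the chain of collagen III, overlapped between the genotypes in each diet (0.29 ± 0.20, adjusted p = 0.288). Of 23 metalloproteinases, inhibitors and cross-linking enzymes, 13 rose and 1 fell, beside the same shares of all genes. The membrane protease gene Mmp14 was the member, at 1.86-fold and 1.21-fold. Timp1, an inhibitor of metalloproteinases, rose in the average (1.20 ± 0.24, adjusted p = 0.00242) but overlapped under ethanol, with 1.90 to 6.91 against 0.704 to 2.71 rescaled FPKM.

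**Figure D3:**
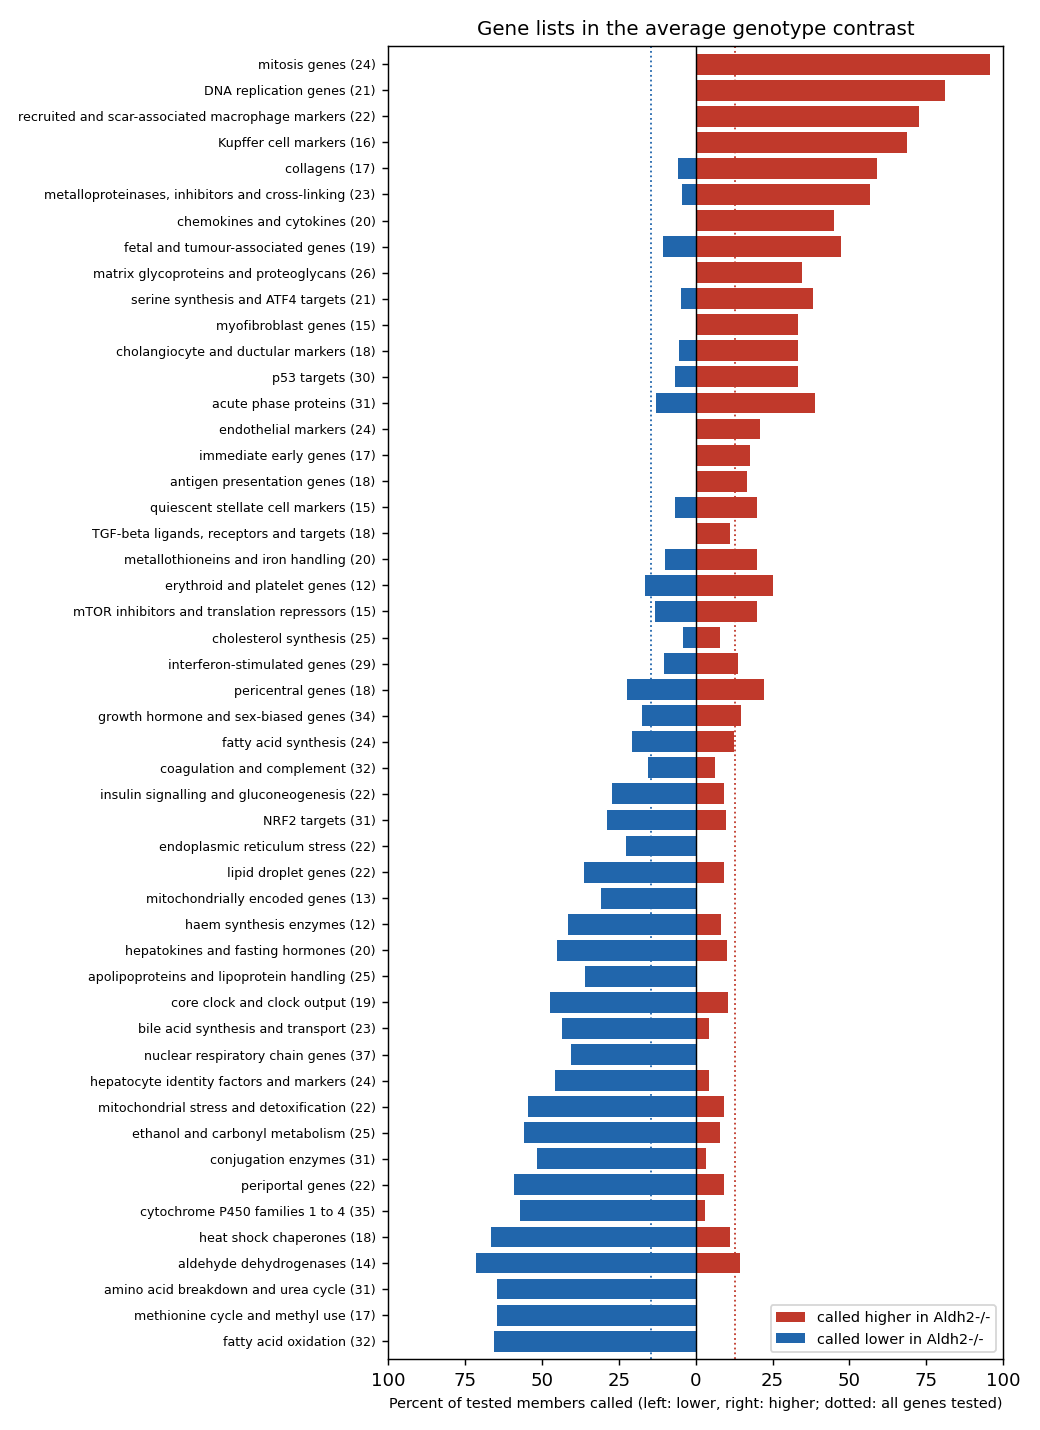
Share of tested members called higher (red, right) or lower (blue, left) in Aldh2-/- livers in the average contrast, for each gene list with at least 10 genes tested (number in brackets). Dotted lines mark the shares of all genes tested, 12.7% higher and 14.4% lower, and the bars are longest for mitosis and DNA replication genes on the right and for aldehyde dehydrogenases (10 of 14) on the left.

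After Aldh2, the largest fall was that of G0s2 (chromosome 1, 193272160-193273188), an inhibitor of the lipase that empties lipid droplets. It was at 7.47, 12.7, 28.2 and 31.5 rescaled FPKM in ethanol-fed Aldh2-/- livers against 155, 191, 257, 258 and 274 in WT livers, and at 120.1, 188 and 190.2 against 292, 412 and 422 under pair-feeding. The fall was 11.4-fold under ethanol and 2.26-fold under pair-feeding, and the difference of the log2 values was called (interaction adjusted p = 0.00484).

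Inmt (chromosome 6, 55170627-55174990), a methyltransferase of indole and other amines, fell to a like extent in each diet. Ethanol-fed Aldh2-/- livers held 76.8, 93.2, 96.7 and 115 rescaled FPKM and WT livers 244, 318, 376, 495 and 549.9. Pair-fed livers held 85.9, 105 and 175 against 329, 368 and 576. By the rule all Aldh2-/- libraries lay below the WT libraries of their diet (4.15-fold and 3.48-fold, average contrast -1.91 ± 0.20, adjusted p = 3.69e-05, and interaction adjusted p = 0.753).

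Other genes among the largest falls have varied roles. Hsd17b6, which converts androgen and retinol substrates, was at 21.4, 23.1, 33.6 and 43.2 against 79.0 to 228 rescaled FPKM under ethanol and at 88.1, 157 and 186 against 263, 351 and 464 under pair-feeding (adjusted p = 0.000238). Retsat, which saturates retinol, was 3.92-fold and 2.10-fold lower (adjusted p = 0.000211). Csad, the enzyme that commits cysteine to taurine, was 3.53-fold and 2.36-fold lower (adjusted p = 0.000876). The non-coding transcript 9030616G12Rik was 3.79-fold and 7.01-fold lower (adjusted p = 1.53e-05), and Apol7a, of the apolipoprotein L family, was 7.11-fold and 1.94-fold lower (interaction adjusted p = 0.00603). Afmid, the kynurenine formamidase of tryptophan breakdown, was 2.09-fold and 3.35-fold lower (adjusted p = 0.000162).

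The enzymes below are mainly hepatocyte genes. Of 24 hepatocyte identity genes, 11 fell and 1 rose, beside 14.4% and 12.7% of all genes. But 2 fell and 2 rose as deposited or with a common sum, and 4 fell with the non-mitochondrial sum. With no filter on low values 6 fell, and without pair-fed Aldh2-/- 1 it was 7. Their summed level was 52993 to 68104 against 66823 to 94308 rescaled FPKM under ethanol and 70701 to 78668 against 82728 to 102357 under pair-feeding. Its part in the falls of hepatocyte enzymes was not tested. Fatty acid oxidation held the most lower members of the lists. Of 32 genes tested, 21 fell and none rose, beside 14.4% of all genes, and the median was -0.54 (-0.90 under ethanol and -0.21 under pair-feeding). With a common sum 14 fell and 1 rose, and with library quality weights 27 fell. The 10 that separated the genotypes in both diets, beside 2.8% of all genes, span the pathway. They included the regulator Ppara, the carnitine shuttle genes Cpt2 and Slc25a20, the dehydrogenase gene Acadm, the isomerase gene Eci1, the peroxisomal thiolase genes Acaa1a and Acaa1b, and the omega-hydroxylase genes Cyp4a10 and Cyp4a14.

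Cpt2, the carnitine palmitoyltransferase of the inner mitochondrial membrane, was at 34.9, 46.7, 50.1 and 51.1 rescaled FPKM against 77.9, 91.5, 101, 114 and 117 under ethanol and at 59.5, 59.8 and 60.8 against 93.8 to 124 under pair-feeding. The genotypes were apart in each diet, as the rule requires (2.19-fold and 1.74-fold, adjusted p = 9.70e-05). Acadm, which starts the oxidation of medium-chain fatty acids, was at 101, 103, 134 and 165 against 251 to 435 rescaled FPKM under ethanol and at 118, 119.5 and 176 against 206, 218 and 247 under pair-feeding (adjusted p = 0.000194). Cyp4a14 fell by nearly the same ratio, 2.72-fold under ethanol and 2.69-fold under pair-feeding (interaction adjusted p = 0.989). Cyp4a10 fell further under pair-feeding, 4.07-fold against 1.55-fold (interaction adjusted p = 0.00429). Ppara, the nuclear receptor that many of these genes respond to, went the other way, 3.07-fold lower under ethanol and 1.21-fold lower under pair-feeding (interaction adjusted p = 0.00493).

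**Figure D4:**
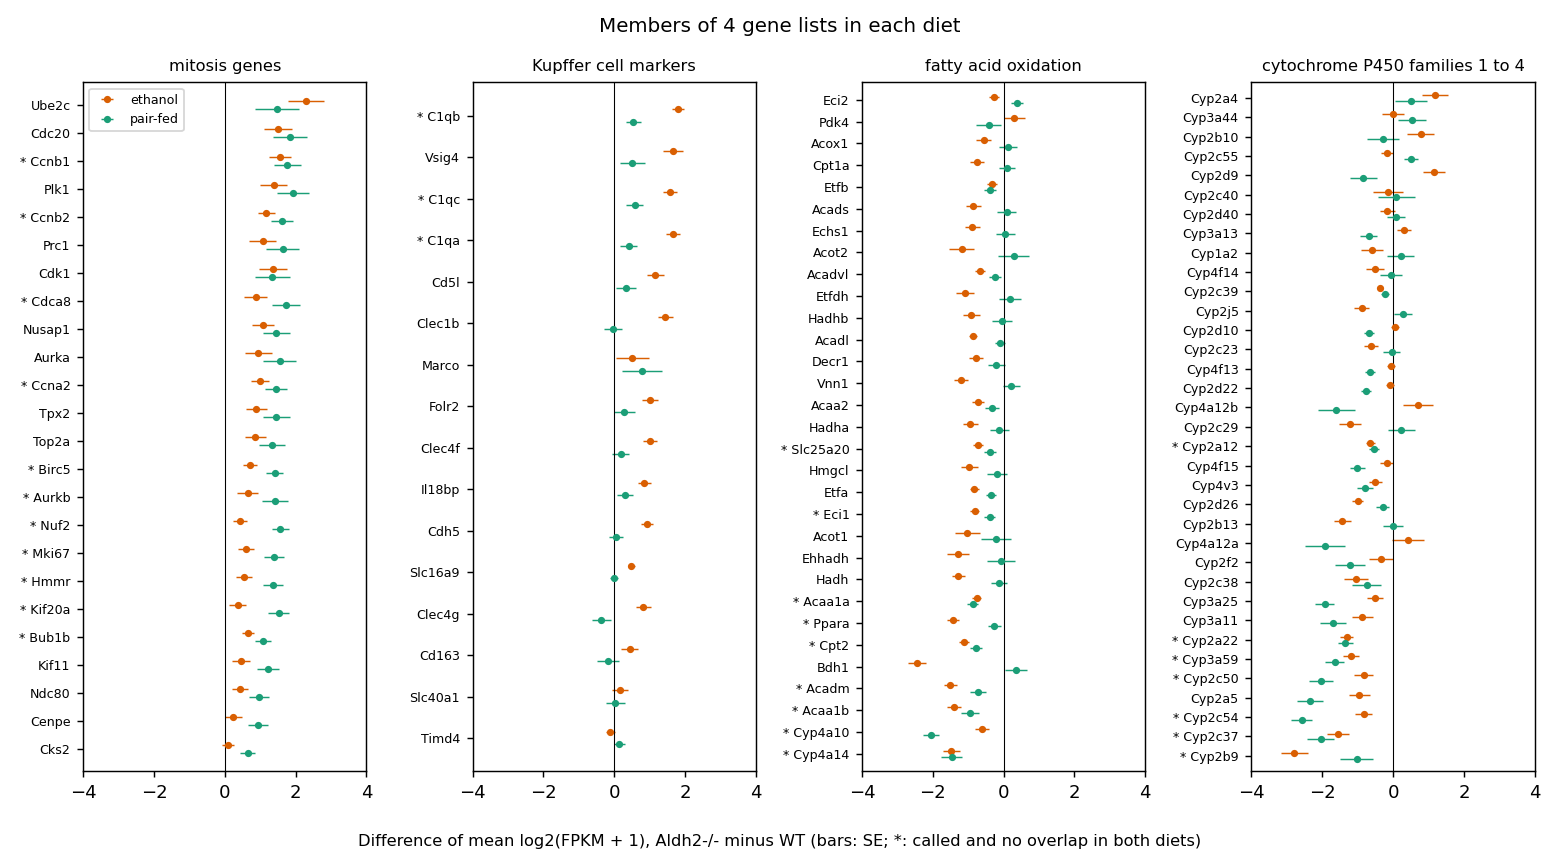
Difference of mean log2(FPKM + 1), Aldh2-/- minus WT, with SE, for tested members of 4 gene lists under ethanol (orange) and pair-feeding (green). Asterisks mark called genes without overlap in both diets. Mitosis genes lie to the right of 0 in each diet, Kupffer cell markers mainly under ethanol, and most fatty acid oxidation and P450 genes lie to the left.

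Cytochrome P450 enzymes of families 1 to 4 oxidise drugs, steroids and fatty acids. Of 35 tested, 20 fell and 1 rose (median -0.50), beside 14.4% and 12.7% of all genes. With a common sum 13 fell, and the interaction was called for 16 of the 35. Members without overlap in both diets were Cyp2a12, Cyp2a22, Cyp2b9, Cyp2c37, Cyp2c50, Cyp2c54 and Cyp3a59. Cyp2a22 was at 5.41, 5.59, 6.32 and 7.32 rescaled FPKM against 12.9, 14.0, 14.7, 17.8 and 27.3 under ethanol, and at 4.76, 5.46 and 6.54 against 13.4, 15.9 and 18.0 under pair-feeding. The falls were alike, 2.81-fold and 2.82-fold (average contrast -1.33 ± 0.14, adjusted p = 3.69e-05, and interaction adjusted p = 0.936). Cyp2c37 was at 52.1 to 100.3 against 154 to 250.3 rescaled FPKM under ethanol and at 5.73, 17.1 and 27.4 against 54.5, 54.8 and 77.1 under pair-feeding. Cyp2c54 was 1.79-fold lower under ethanol and 5.56-fold lower under pair-feeding (9.49-fold without Aldh2-/- 9, and interaction adjusted p = 0.00579). Cyp2b9, by contrast, fell 6.64-fold under ethanol and 2.15-fold under pair-feeding (interaction adjusted p = 0.0407). The Cyp2b and Cyp2c genes lie in clusters of similar copies between which reads can be split, so single members are uncertain.

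Cyp2e1, the P450 that oxidises ethanol and activates CCl4, was called lower (average contrast -1.56 ± 0.26, adjusted p = 0.000853) but was not a member. It was at 987, 1267, 1783 and 2143 against 1911, 2213, 2262, 2266 and 3109 rescaled FPKM under ethanol, where the genotypes overlapped. Under pair-feeding it was at 124, 187 and 482 against 979, 1052 and 1862, a 4.91-fold fall (8.34-fold without Aldh2-/- 9), and the interaction was called (adjusted p = 0.0212).

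Conjugation enzymes, which attach glucuronate, sulfate or glutathione to foreign compounds, fell in 16 of 31 cases and rose in 1 (median -0.51). Among all genes tested 14.4% fell and 12.7% rose. With library quality weights 22 fell. The glutathione transferase genes Gstk1, Gstt1 and Gstz1 and the sulfotransferase gene Sult1b1 were members. Gstt1 was at 117, 125, 131 and 141 rescaled FPKM against 197, 204, 212, 218 and 219 under ethanol and at 189, 207 and 211 against 248, 288 and 303 under pair-feeding (1.63-fold and 1.38-fold lower, adjusted p = 0.000147). Gsta2, a glutathione transferase with similar neighbours, was 2.48-fold and 4.23-fold lower (adjusted p = 5.56e-05).

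Enzymes of amino acid breakdown and the urea cycle fell in 20 of 31 cases, and none rose (median -0.50). Among all genes tested 14.4% fell and 12.7% rose. In a fit of genotype and diet without their interaction 11 fell, and with values as deposited or with a common sum 13. The median difference was -1.10 under pair-feeding and -0.06 under ethanol, and the interaction was called for 17 of the 31. Members were Otc, Fah, Gpt, Haao and Csad. Otc, the urea cycle enzyme ornithine transcarbamylase, was at 37.4, 41.5, 64.5 and 68.6 against 87.5 to 119 rescaled FPKM under ethanol and at 48.4, 61.6 and 77.3 against 103, 107 and 114 under pair-feeding (1.97-fold and 1.72-fold lower, adjusted p = 0.000561). Gpt, alanine aminotransferase, was 1.48-fold and 2.17-fold lower (adjusted p = 0.000178).

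Most other aldehyde dehydrogenases were lower. Of 14 tested besides Aldh2, 10 fell and 2 rose (median -0.56), beside 14.4% and 12.7% of all genes. With a common sum 5 fell and 2 rose. Aldh3a2, the microsomal enzyme for fatty aldehydes, was at 18.6, 19.6, 27.8 and 35.7 rescaled FPKM against 50.5, 63.6, 85.3, 85.3 and 102 under ethanol and at 27.6, 27.6 and 34.1 against 43.0, 45.0 and 65.9 under pair-feeding. No overlap was seen in either diet, as the rule requires (3.05-fold and 1.72-fold lower, adjusted p = 0.000386). Aldh6a1, of valine and pyrimidine breakdown, was 2.06-fold and 1.56-fold lower (adjusted p = 0.000378). Aldh8a1, which acts on retinal and in tryptophan breakdown, was 1.60-fold and 1.37-fold lower (adjusted p = 0.00103). Aldh1a1, the main cytosolic enzyme, fell in the average (adjusted p = 0.00942) but overlapped in both diets, with 132 to 254 against 249 to 458 rescaled FPKM under ethanol and 125, 146 and 177 against 160.1, 161 and 252 under pair-feeding.

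Of 25 further genes of ethanol and carbonyl metabolism, 14 fell and 2 rose, beside 14.4% and 12.7% of all genes. Catalase (Cat), which breaks down hydrogen peroxide and can oxidise ethanol, was at 260.1, 357, 452 and 579 against 719 to 1165 rescaled FPKM under ethanol and at 454, 494 and 714 against 805, 912 and 947 under pair-feeding (2.35-fold and 1.60-fold lower, adjusted p = 0.000920). Akr1d1, a reductase of bile acid synthesis, was 2.19-fold and 2.44-fold lower (adjusted p = 0.000535). Aldose reductase (Akr1b3), which reduces glucose and lipid aldehydes, was the higher member, at 1.66-fold and 1.96-fold (adjusted p = 0.00145). Adh1, the main hepatic alcohol dehydrogenase, was not called (-0.15 ± 0.13, adjusted p = 0.418).

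Detoxifying enzymes of the mitochondrion and of methylglyoxal were lower as well. Of 22 genes of mitochondrial stress and detoxification tested, 12 fell and 2 rose, beside 14.4% and 12.7% of all genes. Only 4 fell with a common sum, and 7 without pair-fed WT 19. Members included superoxide dismutase (Sod2), thioredoxin (Txn2) and its reductase (Txnrd2), the glyoxalases Glo1 and Hagh, and, in the higher direction, the uncoupling protein gene Ucp2. Hagh was at 31.3, 32.8, 35.4 and 45.4 against 62.0 to 68.1 rescaled FPKM under ethanol and at 49.6, 49.6 and 54.6 against 63.8, 81.0 and 93.3 under pair-feeding (adjusted p = 0.000178). Ucp2 was 2.17-fold and 1.66-fold higher (adjusted p = 0.000643). Nuclear genes of the respiratory chain fell in 15 of 37 cases, beside 14.4% of all genes. But 1 fell with values as deposited, 8 without pair-fed Aldh2-/- 1 and 7 without pair-fed WT 19. The Rieske subunit gene Uqcrfs1 was a member, at 171 to 207 against 210.2 to 246 rescaled FPKM under ethanol and at 152, 165 and 165 against 244, 255 and 276 under pair-feeding (adjusted p = 0.000336). The share of transcripts encoded in the mitochondrial genome moved with genotype under pair-feeding, as given above. Its part in the falls was not tested. All 13 genes of that genome lay lower without overlap under pair-feeding, as did 1635 of all 11132 genes tested. None separated under ethanol, where 3094 of all genes did. In the average contrast 4 of the 13 were called lower, beside 14.4% of all genes. That count was 10 without ethanol Aldh2-/- 90, 2 without ethanol Aldh2-/- 86, 1 without pair-fed Aldh2-/- 1 or 9, and 0 without pair-fed WT 20 or with values as deposited.

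**Figure D5:**
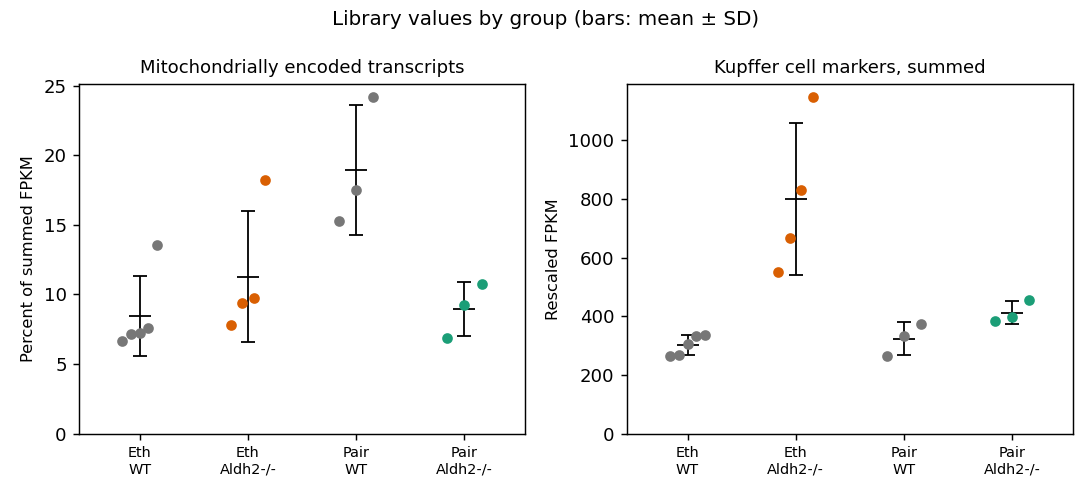
Share of mitochondrially encoded transcripts in the summed FPKM (left, percent) and summed Kupffer cell markers (right, rescaled FPKM) in each library (points), with mean ± SD as bars. The mitochondrial share separates the genotypes under pair-feeding only, and the Kupffer sum separates them in each diet, with 552 to 1148 in Aldh2-/- against 265 to 337 in WT livers under ethanol.

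Genes of growth hormone signalling were among the members. The receptor gene Ghr was at 15.6, 16.4, 17.1 and 23.3 against 26.8 to 51.2 rescaled FPKM under ethanol and at 20.3, 25.2 and 26.1 against 33.0, 34.5 and 35.6 under pair-feeding (adjusted p = 0.000609). Socs2, a feedback inhibitor induced by that receptor, was 8.77-fold higher under ethanol and 1.93-fold higher under pair-feeding (interaction adjusted p = 0.00192). Hsd3b2, a steroid dehydrogenase, was 3.49-fold and 2.69-fold lower (adjusted p = 0.000258). Of the whole list of 34 growth hormone and sex-biased genes, 5 rose and 6 fell, beside 12.7% and 14.4% of all genes.

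Other genes separated the genotypes in both diets in opposite directions. Got1, cytosolic aspartate aminotransferase, was at 772, 834, 1141 and 1758 against 207 to 382 rescaled FPKM under ethanol and at 24.0, 24.9 and 40.4 against 106, 116 and 135 under pair-feeding (average contrast -0.10, interaction adjusted p = 9.94e-05). Nnmt, which methylates nicotinamide, was 3.11-fold higher under ethanol and 3.64-fold lower under pair-feeding (interaction adjusted p = 0.000186). Cholesterol synthesis was the list with most such genes, 12 of 25 beside 3.77% of all genes. It had no member that moved the same way in both diets, and the interaction was called for 25 of its 25 genes. Sc5d, a late enzyme of that pathway, was at 9.52 to 14.0 against 21.8 to 39.3 rescaled FPKM under ethanol and at 70.7, 70.8 and 70.9 against 27.0, 31.3 and 38.1 under pair-feeding (interaction adjusted p = 9.94e-05).

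Genes near Aldh2 were examined because a knockout can carry flanking sequence of its founder strain. Within 5 Mb on either side 90 other genes were tested, of which 21 (23.3%) were called, against 27% of all genes with a position. The only one without overlap in both diets was Atp6v0a2 (chromosome 5, 124629052-124724455), a subunit of the vacuolar proton pump. It was at 4.69, 4.89, 5.05 and 5.33 against 5.67 to 7.08 rescaled FPKM under ethanol and at 4.37, 4.75 and 5.01 against 5.86, 5.88 and 6.27 under pair-feeding (average contrast -0.30 ± 0.06, adjusted p = 0.00295, and 0.173 with values as deposited). At the filter on low values, Ptgfrn with a mean of 0.505 FPKM was the last member inside and Ripk3 with 0.49996 the first outside. Of 12377 genes under the filter, 107 met the rest of the rule.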

How the data were processed

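Liver RNA was extracted with TRIzol, made into libraries with a VAHTS kit and sequenced as paired 150-base reads on an Illumina NovaSeq instrument, per the labels' protocols. The authors deposited FPKM values per gene in 2 tables, 1 for each diet, and the submitters' processing notes name fastp, HISAT2, HTSeq and the mm10 build. Versions are not given in the sources used here, and counts were not used. Of 29348 low values in 3104 genes, 29268 (99.7%) were whole multiples of their gene's smallest step within 0.01 of a step, from which relative depth was read (deepest to shallowest 1.23).

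The tables were joined by gene symbol (23509 genes) and rescaled by median ratio over all 15 libraries. Every per-sample column was used. Genes whose mean reached 0.5 FPKM were fitted on log2(FPKM + 1) with limma 3.58.1 (R 4.3.3), with 4 group means and empirical Bayes variances, and p-values were adjusted by the Benjamini-Hochberg method over all 11132 genes. A gene was called at an adjusted p under 0.05. The interaction is the difference of the within-diet differences. No overlap means that every Aldh2-/- library lay on 1 side of every WT library of its diet. Folds are ratios of group means of rescaled FPKM. Figures used matplotlib 3.10.9, and tables used numpy 2.4.6 and pandas 2.3.3 under Python 3.11.15. The scripts were tested on simulated data. Positions and promoters came from RefSeq on GRCm38.p6, and 11013 of 11132 tested genes had a position.

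The members, the 53 gene lists and the tests were chosen with earlier results of these data known. The rule for named genes took Aldh2, the 12 largest rises and falls among called members, up to 3 members per list, the 5 genes with the largest opposite differences each way, a panel of known genes, and members within 5 Mb of Aldh2. Other members were chosen after their values were seen. Alternatives were other scalings, pseudocounts, filters, variance models, a fit without interaction, a replicate block, and each library left out. A gene of the fatty acid oxidation list is counted with its list but not reported here by itself.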

Additional observations from a re-analysis of the deposited data

Results flagged for a closer look

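In 17 of 214 groups of 4 or 5 libraries examined over 107 named genes, 1 library stood apart from the rest of its group, and chance gives about 1 in 20. Ethanol-fed Aldh2-/- 90 stood apart for the mitosis-related genes Ccnb2 at 10.7, Mki67 at 1.34, Ckap2 at 2.43 and Bub1b at 1.35 rescaled FPKM, and for Gstk1 at 111 and Clec4g at 37.8. In ethanol-fed Aldh2-/- 86, Eci1 was at 67.7 rescaled FPKM. In ethanol-fed Aldh2-/- 89, Cxcl14 was at 10.1 and Cenpb at 54.3 rescaled FPKM. In ethanol-fed Aldh2-/- 96, Gsta2 was at 44.0 and Aldh6a1 at 75.3 rescaled FPKM. Ethanol-fed WT 7 stood apart with Serpina1e at 576, 9030616G12Rik at 12.2 and Adh1 at 1282 rescaled FPKM. In ethanol-fed WT 5, Cd9 was at 87.8 and Cdh5 at 5.45 rescaled FPKM, and Socs2 in ethanol-fed WT 11 was at 1.63.

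The genotype difference itself differed between the diets for 27 of these genes by limma's interaction test, with adjusted p-values given in the report or, where they are not, 0.0277 for Vcam1, 0.0183 for Nuf2, 0.0383 for Kif20a, 0.0170 for Gstk1, 0.0201 for Clec4g and 0.0265 for Cdh5. The value here is the ethanol difference minus the pair-fed difference in log2(FPKM + 1). Among higher members it was 2.43 for Spink1, 1.79 for Btg3, 1.69 for Socs2, 1.45 for Sesn1, 1.26 for C1qb, 1.26 for C1qa, 1.00 for C1qc and 0.86 for Vcam1, all with the larger rise under ethanol. It was -1.42 for Rgs16, -1.12 for Fabp5, -1.13 for Nuf2, -1.16 for Kif20a and -0.50 for Mcm6, with the larger rise under pair-feeding. Among lower members it was -2.43 for G0s2, -1.76 for Cyp2b9, -1.44 for Apol7a and -1.17 for Ppara, with the larger fall under ethanol, and 1.75 for Cyp2c54, 1.44 for Cyp4a10 and 0.70 for Gstk1, with the larger fall under pair-feeding. Outside the members it was 2.72 for Gpnmb, 1.82 for Cyp2e1, 1.18 for Clec4g and 0.87 for Cdh5. The genes with opposite directions had 3.79 for Got1, 3.47 for Nnmt and -2.61 for Sc5d.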

How the results depend on the processing

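Over 30 settings, 459 of the 546 called members were called in the same direction in every setting other than the filters on low values, and 233 kept no overlap under all 5 other scalings. Of 3163 values of named genes, 3130 kept their side of the threshold, 12 lost the call and 20 gained it. A further 1 reversed, that of Alb after quantile normalization (0.051, adjusted p = 0.882). Direction was compared only where a gene was called in the main fit or in the setting. Changes of sign in genes called in neither were not counted. Genes called higher and lower numbered 3658 and 678 as deposited, 3567 and 612 with a common sum, 2828 and 812 with a common sum of genes not encoded in mitochondria, and 2319 and 2598 with library quality weights. Genes without overlap in both diets, higher and lower, numbered 686 and 90, 688 and 75, and 576 and 101 under the first 3 of these, and opposite genes numbered 653 and 672 under the first 2. The cause was not tested. With a mean of at least 2 FPKM fewer genes were tested, and 817 were called higher and 144 were higher without overlap. Without ethanol WT 5 and ethanol Aldh2-/- 90, 524 genes were lower without overlap and 727 were opposite. Without these and pair-fed WT 20, the counts were 402 higher, 588 lower and 882 opposite, where fewer samples make separation easier. Leaving out 1 library at a time gave 1010 to 1602 called higher, 1115 to 1929 called lower, 249 to 378 higher and 316 to 458 lower without overlap, 433 to 825 opposite, and an Aldh2 contrast of -5.78 to -5.68, with 533 to 545 of the members still called. As a check on pairing by replicate number, same-numbered libraries correlated at r = -0.33 to 0.24, with 4 of 19 pairs over 0.1. Deviations from the means of groups this small depend on one another, so the check cannot exclude pairing. With the replicate block 1122 genes were called higher and 1334 lower, the Aldh2 contrast was -5.70, and 534 members were still called. The non-mitochondrial sum, the mitochondrial covariate and the 3-library omission were chosen after seeing the data.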
